A study of Mus musculus with 16 samples.

Results

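Stimulated Nlrx1-/- astrocytes were compared with stimulated WT astrocytes across all genes, in 8 of the 16 RNA-seq libraries of the study. These 8 libraries were chosen by their labels alone, as the 4 Nlrx1-/- (KO) and the 4 WT cultures that received LPS + IFNγ, and no measured value was used to choose them. All cultures were primary astrocytes of C57BL/6J background, purified from the brains of postnatal day 6 pups with beads against ACSA2, an astrocyte surface antigen, and grown without serum in the presence of HB-EGF. WT cultures carried both intact copies of Nlrx1, and KO cultures came from mice with a constitutive deletion, so that every cell type and every earlier stage of development lacked the gene as well. Stimulated cultures received 500 ng/mL lipopolysaccharide with 10 ng/mL IFNγ for 24 h, and the 8 vehicle cultures received water for the same time. Each litter gave 1 vehicle and 1 stimulated library. WT and KO came from separate litters, so litter and genotype cannot be told apart within any one pair of libraries, and the litter is the replicate (n = 4 per group). The main genotype fit nevertheless held no litter term and counted the vehicle and the stimulated library of a litter as separate.

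NLRX1 is a NOD-like receptor that sits in mitochondria and is best known as a brake on NF-κB and type I interferon signalling. LPS acts through TLR4 and NF-κB, and together with IFNγ it drives cultured astrocytes into an inflammatory state with chemokines, guanylate-binding proteins and antigen presentation genes. Astrocytes in the resting state instead express transporters, gap junction proteins and lipid carriers that serve neurons.

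Levels are given as CPM (gene reads scaled to the total and composition of each library), differences as log2 fold changes with KO relative to WT, and a gene was called at an adjusted p below 0.05 by edgeR's quasi-likelihood test with Benjamini-Hochberg adjustment over 16066 genes. Nlrx1 (chr9:44164011-44179896, minus strand, GRCm39) stood at 17.4, 17.6, 18.0 and 19.2 CPM in stimulated WT litters 1 to 4 and at 4.58, 4.20, 2.15 and 4.76 CPM in KO litters 1 to 4. The groups did not overlap, and the log2 fold change was -2.19 (SE 0.25, adjusted p = 0.00291). Reads remained in all 4 KO libraries, and which part of the transcript they came from was not analysed here.

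The stimulated libraries held 29172271 to 39568994 read pairs. Astrocyte markers were abundant in all of them, with Slc1a3, a glutamate transporter, at 2420 to 2990 CPM, and the sum of 7 markers ran from 4940 to 7930 CPM in WT and from 3990 to 5830 CPM in KO. Of 14 microglial markers 12 were below 1 CPM in every stimulated library, with Fcrls at 0 in all. Oligodendrocyte lineage RNA was present, since the sum of 7 precursor markers ran from 2110 to 2980 CPM in WT and from 2120 to 2760 CPM in KO. Olig1 made up most of that sum, at 1490 to 2020 CPM. The sum of 9 oligodendrocyte markers was lower in KO (200 to 476 CPM) than in WT (388 to 786 CPM), with overlap, and so was that of 8 ependymal markers (92.5 to 141 against 145 to 203 CPM), without overlap. Gene by gene, the median log2 fold change was -0.74 over the 7 precursor markers, with 6 below 0 and 1 called lower. Over the 8 oligodendrocyte markers tested it was -2.42, with all below 0 and none called. Foxj1 made up most of the ependymal sum, and the other 7 markers together ran from 21.8 to 36.8 CPM in WT and from 15.3 to 20.8 CPM in KO. In bulk libraries fewer cells of a type and less RNA per cell cannot be told apart.

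2 further properties of the litters bear on what follows. KO litters 2 and 4 lay farther from the WT mean than KO litters 1 and 3 in 639 of the 759 genes called below, and the myelin gene Mbp followed the same division, at 12, 1.39, 38.5 and 2.04 CPM in KO litters 1 to 4 against 27.8, 33.9, 103 and 118 CPM in WT litters. The sex of the pups was also unevenly spread. Xist, transcribed from the inactive X, stood at 858, 581, 441 and 1250 CPM in WT and at 1080, 999, 1390 and 2.78 CPM in KO, while the Y-linked Ddx3y stood at 18.0, 16.1, 23.3 and 0.556 CPM in WT and at 0.210, 1.06, 0.963 and 54.8 CPM in KO. RNA of both sexes was thus present in WT litters 1 to 3, WT litter 4 and KO litters 1 to 3 held almost no Y-linked RNA, and KO litter 4 held almost no Xist. The part of sex and of oligodendrocyte RNA in the differences below was not tested.

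In the stimulated state, 396 genes (2.46% of those tested) rose in KO and 363 (2.26%) fell, 4.72% in all. The median log2 fold change of the called genes was 0.63 among those that rose and -0.63 among those that fell, and over all genes the median absolute log2 fold change was 0.22. The 4 KO litters lay all above the 4 WT litters for 1066 genes (6.64%) and all below them for 1041 (6.48%). Of the called genes, 296 and 273 also had groups that did not overlap. The calls stood close to the threshold, since 754 of the 759 had an adjusted p between 0.04 and 0.05. Leaving out WT litter 2, 3 or 4 reduced them to 0, 0 and 1 genes higher and 1, 2 and 2 lower, leaving out KO litter 2 or 4 to 7 and 2 higher and 4 and 2 lower, and leaving out KO litter 1 to 142 and 71, whereas leaving out KO litter 3 gave 1451 and 1838 and WT litter 1 gave 601 and 728. A fit of the 8 stimulated libraries alone, in which the vehicle libraries did not share in the estimate of the spread, gave 0 genes higher and 1 lower. On all 16 libraries DESeq2 gave 1229 and 1209 (7.65% and 7.53%), limma-voom 200 and 187 (1.24% and 1.16%), and limma on the deposited log2 CPM 735 and 736 (4.40% and 4.41% of its genes). All 759 genes kept their direction in each of the 8 fits that left out a litter. A kept direction says little here, because the genes were called on mostly the same libraries. Nlrx1 was the 1 gene called in all 8 fits. The genes below are therefore given with the value of each litter.

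**Figure D1:**
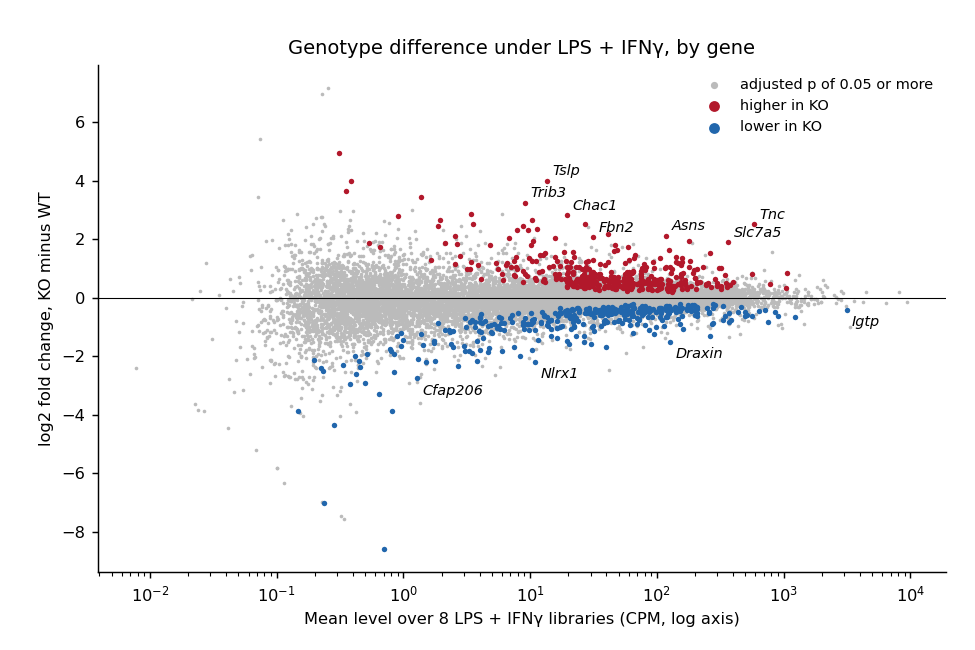
Each point is 1 gene, placed by its mean CPM over the 8 stimulated libraries (x, log axis) and its log2 fold change, KO minus WT (y). Red points rose (396 genes), blue points fell (363 genes) and grey points did not pass, and 2 genes at 0 in all 8 libraries are not drawn. Tnc and Asns combined a high level with a large rise, and Igtp was the most abundant named gene that fell.

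**Figure D2:**
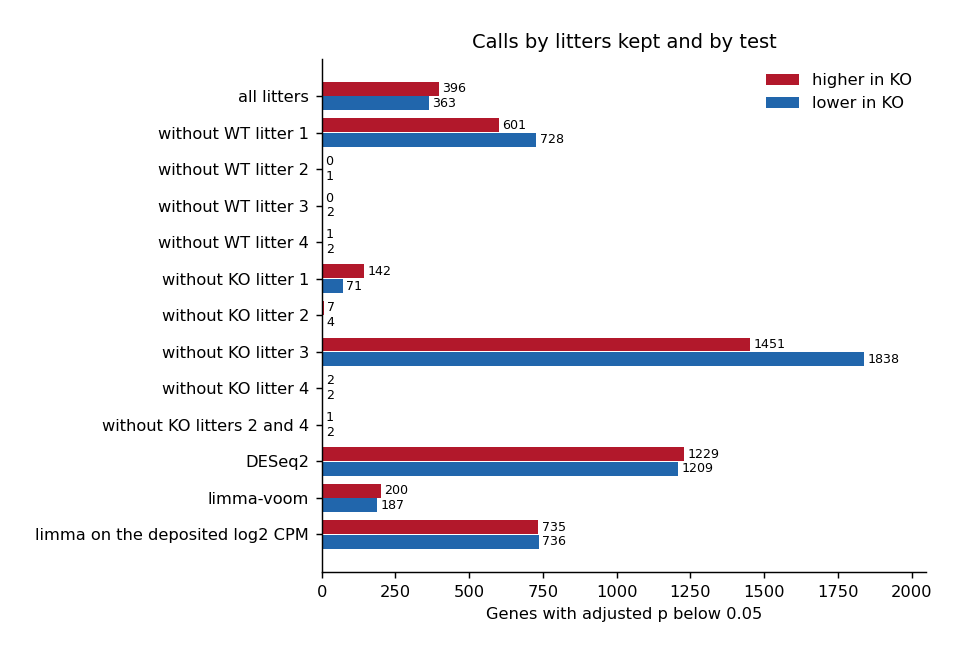
Bars give the number of genes with an adjusted p below 0.05, red for higher in KO and blue for lower, with all litters, with litters left out, and by other tests on all litters. The count ran from 0 and 1 without WT litter 2 to 1451 and 1838 without KO litter 3.

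More members rose than not in the amino acid response driven by ATF4, a transcription factor that cells make when amino acids are short or the integrated stress response is on, and that raises amino acid synthesis, uptake and tRNA charging. Of its 27 measured genes 16 rose and none fell, where 2.46% of all genes were called higher. The median log2 fold change was 1.22 against -0.02 over all genes. Of 20 cytosolic tRNA synthetases, which load amino acids onto tRNA, 13 rose and none fell (median 0.79). The litters overlapped for most of these genes all the same. KO lay wholly above WT for 1 of the 27 and 2 of the 20, against 6.64% of all genes. It lay wholly below for 1 of the 20 (Qars, not called and singled out after its values were seen), against 6.48% of all genes.

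Asns, which makes asparagine, stood at 68.0, 43.3, 36.5 and 30.5 CPM in WT litters 1 to 4 and at 119, 307, 51.5 and 294 CPM in KO litters 1 to 4. KO litters 1, 2 and 4 lay above all WT litters, and KO litter 3 lay inside the WT range (log2 fold change 2.12, SE 0.45, adjusted p = 0.0403). Slc7a5, a subunit of the main carrier of large neutral amino acids, had the same order, with 229, 148, 139 and 105 CPM in WT and 359, 897, 193 and 859 CPM in KO (1.89, SE 0.40, adjusted p = 0.0403). Shmt2, which feeds one-carbon units from serine in mitochondria, stood at 134, 105, 98.1 and 92.8 CPM in WT and at 191, 346, 123 and 358 CPM in KO (1.25, SE 0.25, adjusted p = 0.0403).

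4 further members, Chac1, Trib3, Ddit3 and Atf4, were picked after their values were seen. Chac1, which degrades glutathione, stood at 9.92, 4.04, 2.88 and 2.73 CPM in WT and at 15.4, 55.5, 4.87 and 60.6 CPM in KO (2.81, SE 0.65, adjusted p = 0.0403). Trib3, a pseudokinase that feeds back on ATF4, stood at 3.93, 1.34, 0.949 and 0.751 CPM in WT and at 6.95, 28.1, 2.21 and 28.3 CPM in KO (3.24, SE 0.74, adjusted p = 0.0403). Ddit3, which encodes CHOP, had a log2 fold change of 1.25 (SE 0.33, adjusted p = 0.0477). Atf4 itself did not pass, at 113 to 215 CPM in WT and 151 to 468 CPM in KO (1.06, SE 0.30, adjusted p = 0.0531). The most abundant member, Slc7a11, which imports cystine, had a log2 fold change of 0.06 (adjusted p = 0.913) and changed sign when single litters were left out.

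Among the synthetases, Iars (isoleucine) stood at 112, 86.8, 76.7 and 67.8 CPM in WT and at 154, 269, 109 and 263 CPM in KO (1.21, SE 0.25, adjusted p = 0.0403). Tars (threonine) had a log2 fold change of 1.03 (SE 0.22, adjusted p = 0.0403), and Farsb, a subunit of the phenylalanine enzyme, had 0.67 (SE 0.14, adjusted p = 0.0403) with KO litters (53.5 to 81.2 CPM) wholly above WT litters (32.9 to 50.7 CPM). Wars (tryptophan), an IFNγ-inducible synthetase and the most abundant at 801 CPM, had a log2 fold change of -0.17 (adjusted p = 0.228). In vehicle, the medians of the ATF4 list and the synthetases were 0.31 and 0.29, and the vehicle library of KO litter 2 lay highest, with median deviations of 0.11 and 0.04 from the stimulated WT mean where the other 7 vehicle libraries were below 0. Without KO litters 2 and 4, an alternative chosen after seeing the data, the stimulated medians were 0.40 and 0.32.

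Promoters of these genes were read because the members moved together. Windows from 250 bases before to 50 after the start were found in RefSeq (GRCm38.p6) for 12652 of the 16066 genes tested. TGATGNAA, the letters of a C/EBP-ATF response element bound by ATF4, chosen after seeing the data and searched on both strands, occurred in 2.85% of these, in 8 of 25 ATF4 list promoters (32%) and in 5 of 13 synthetase promoters (38.5%). The ATF4 list was drawn up as genes of the ATF4 response, so its share describes the list and not KO against WT. Of the 13 synthetases with a promoter 9 were called, among them all 5 with a match (Aars, Gars, Iars, Tars and Yars). In the ATF4 list 5 of the 14 called genes with a promoter held a match. Whether a match went with a call was not tested. Aars (log2 fold change 0.78), Gars (1.03) and Yars (0.99) are named here for the match and after their values were seen. Of 292 promoters of genes called higher 23 held a match (7.88%), among them 5 of the ATF4 list and 5 of the synthetases. These members are in both counts, so the 7.88% is not a separate observation. Of promoters of genes called lower, 2.76% held a match. The windows of Asns (chr6:7693160-7693459, minus strand), Chac1 (chr2:119350992-119351291, plus strand), Trib3 (chr2:152344011-152344310, minus strand), Aars (chr8:111033592-111033891, plus strand) and Gars (chr6:55037751-55038050, plus strand) are shown to place the match in the genes that rose, 5′ to 3′ with the match in capitals as it reads on the printed strand, so that a match on the other strand appears as its reverse complement, and a match is a description of letters and not evidence of binding.
Asns: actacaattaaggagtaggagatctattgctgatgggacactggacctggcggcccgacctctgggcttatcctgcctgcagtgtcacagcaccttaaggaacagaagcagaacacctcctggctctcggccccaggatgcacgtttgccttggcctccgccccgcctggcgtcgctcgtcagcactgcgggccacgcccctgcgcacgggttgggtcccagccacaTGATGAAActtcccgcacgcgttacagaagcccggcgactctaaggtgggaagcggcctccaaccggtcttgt
Chac1: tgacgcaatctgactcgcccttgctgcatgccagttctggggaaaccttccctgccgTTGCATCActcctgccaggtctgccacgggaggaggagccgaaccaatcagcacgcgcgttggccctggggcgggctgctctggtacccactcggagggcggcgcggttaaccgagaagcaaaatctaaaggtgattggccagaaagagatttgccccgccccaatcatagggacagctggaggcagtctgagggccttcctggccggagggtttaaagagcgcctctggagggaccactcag
Trib3: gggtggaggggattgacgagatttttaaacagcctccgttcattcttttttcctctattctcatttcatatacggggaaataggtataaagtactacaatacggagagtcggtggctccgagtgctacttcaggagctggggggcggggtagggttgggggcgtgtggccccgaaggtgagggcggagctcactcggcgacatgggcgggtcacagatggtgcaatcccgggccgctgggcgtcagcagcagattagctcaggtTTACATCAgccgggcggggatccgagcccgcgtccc
Aars: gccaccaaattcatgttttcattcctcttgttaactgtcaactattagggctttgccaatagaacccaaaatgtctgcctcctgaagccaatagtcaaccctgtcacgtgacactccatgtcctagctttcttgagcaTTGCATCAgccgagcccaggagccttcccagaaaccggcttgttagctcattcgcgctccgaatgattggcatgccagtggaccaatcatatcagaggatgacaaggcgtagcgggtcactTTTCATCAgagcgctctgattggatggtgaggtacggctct
Gars: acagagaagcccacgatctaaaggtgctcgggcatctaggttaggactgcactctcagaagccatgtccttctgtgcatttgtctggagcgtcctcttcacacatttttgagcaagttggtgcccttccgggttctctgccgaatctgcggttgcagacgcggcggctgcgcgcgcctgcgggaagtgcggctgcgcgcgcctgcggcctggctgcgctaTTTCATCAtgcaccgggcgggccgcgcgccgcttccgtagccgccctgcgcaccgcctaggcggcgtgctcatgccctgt
The match began 23 bases before the start in Asns, 193 before in Chac1 and 30 before in Gars, and 14 bases after it in Trib3, and Aars held 2, which began 112 bases before and 9 bases after the start.

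**Figure D3:**
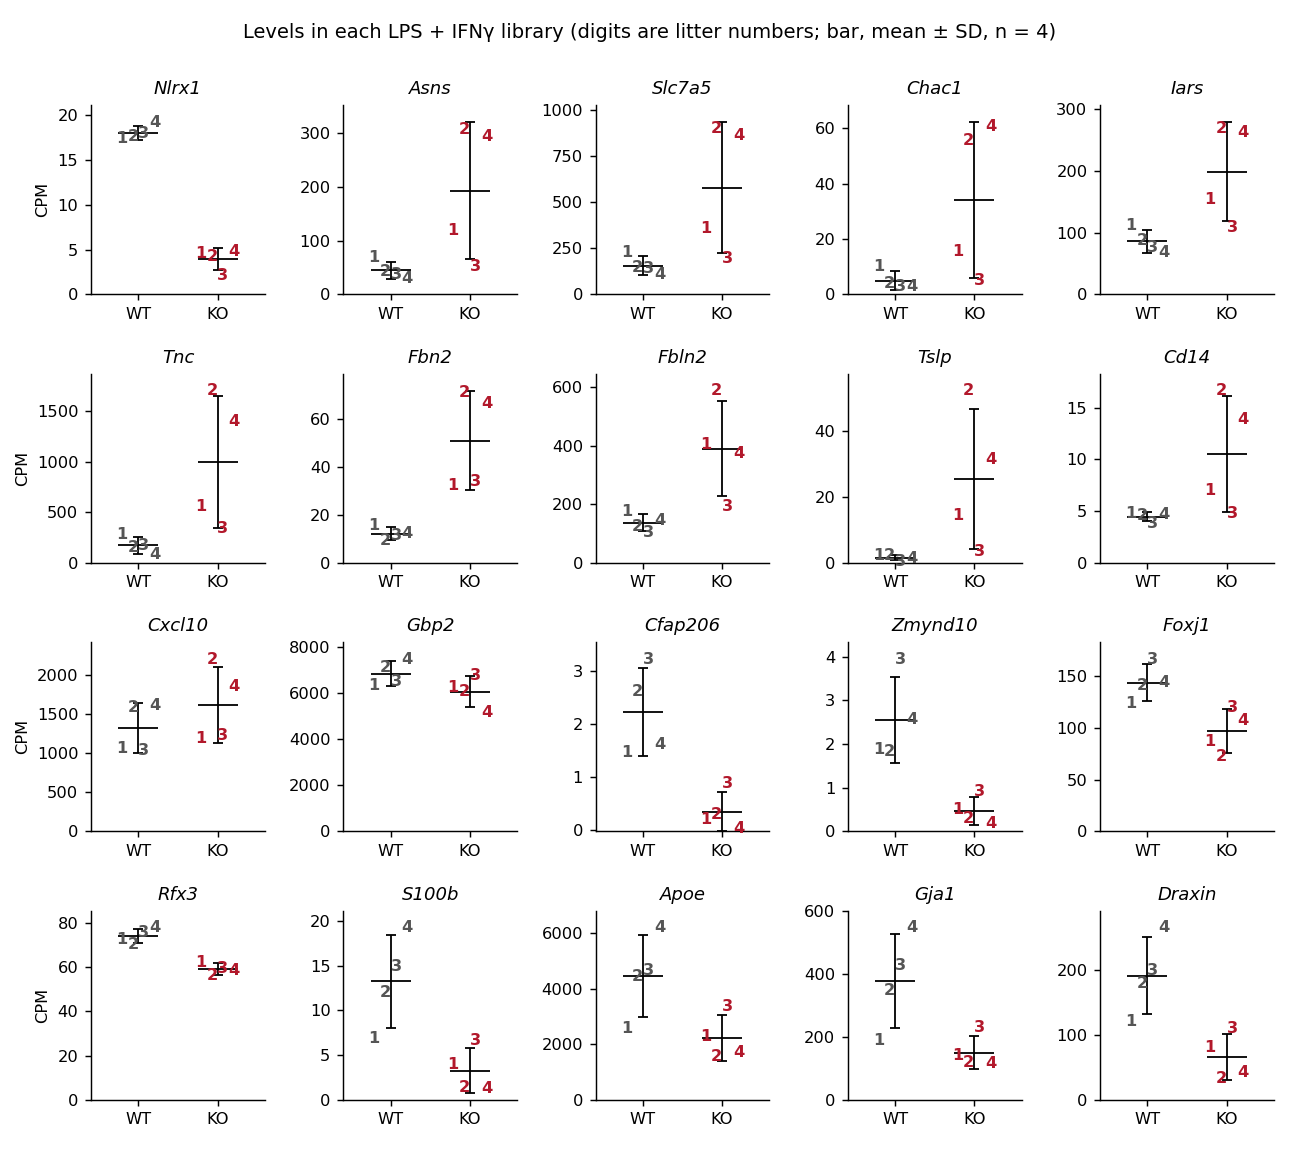
CPM of 20 genes in the 4 WT (grey) and 4 KO (red) stimulated libraries, with linear axes and the litter number as the symbol, and bars for the mean ± SD (n = 4). KO litters 2 and 4 lie highest for Asns, Tnc and Chac1 and lowest for S100b, and Nlrx1 and Rfx3 separate without overlap.

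Ribosome biogenesis, the assembly of ribosomes in the nucleolus, rose on a broader base. Of 108 genes 37 rose and none fell, against 2.46% called higher over all genes. KO lay wholly above WT for 58, against 6.64% of all genes, and wholly below for none. The median was 0.48, with 0.32 in vehicle and 0.31 under stimulation without KO litters 2 and 4. Called genes came from each stage, with 3 of 13 for RNA polymerase I, 3 of 10 for snoRNP proteins, 14 of 41 for the small and 17 of 44 for the large subunit. Wdr36, a small subunit processome protein, stood at 43.6, 40.1, 44.7 and 34.4 CPM in WT and at 62.2, 99.7, 57.0 and 79.4 CPM in KO (log2 fold change 0.89, SE 0.18, adjusted p = 0.0403), so that every KO litter was above every WT litter. Wdr12, of the large subunit pathway, stood at 19 to 22.8 CPM in WT and at 27.2 to 36.6 CPM in KO (0.63, SE 0.13, adjusted p = 0.0403). Wdr3 stood at 21.7 to 25.1 CPM against 27.5 to 38.5 CPM (0.49, SE 0.10, adjusted p = 0.0403). Nucleolin (Ncl), the most abundant member, did not pass, at 444 to 598 CPM in WT and 583 to 852 CPM in KO (0.40, SE 0.14, adjusted p = 0.0817).

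The ribosomal proteins themselves moved little. None of 80 was called, KO lay wholly above WT for 1, against 6.64% of all genes, and the median was 0.12. Rplp0, the most abundant, stood at 1390 to 1540 CPM in WT and at 1470 to 1850 CPM in KO (0.20, SE 0.09, adjusted p = 0.168). Over all genes 2.46% were called higher and 2.26% lower. Of 38 translation initiation genes 9 rose and none fell (median 0.25). Eif4ebp1, a repressor of cap-dependent initiation that is itself an ATF4 target, stood at 36.6, 29.1, 25.2 and 19.4 CPM in WT and at 57.5, 136, 33.8 and 136 CPM in KO (1.74, SE 0.38, adjusted p = 0.0403). Eif2s2, the beta subunit of eIF2, had 0.94 (SE 0.21) and Eif5, its partner in start codon selection, 0.37 (SE 0.08), both at an adjusted p of 0.0403. Of 56 nuclear transport genes 5 rose and none fell (median 0.16), among them Xpot, which exports tRNA (0.85, SE 0.19), and the importins Ipo4 (0.59, SE 0.13) and Ipo7 (0.50, SE 0.12), each at an adjusted p of 0.0403. Of 71 splicing factors 1 rose, Sf3b3 (0.46, adjusted p = 0.0466), a share below that of all genes.

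Tnc, tenascin C, a matrix glycoprotein of reactive and developing astrocytes, stood at 284, 154, 174 and 80.7 CPM in WT litters 1 to 4 and at 557, 1700, 337 and 1400 CPM in KO litters 1 to 4. Every KO litter was above every WT litter (2.51, SE 0.57, adjusted p = 0.0403). Fbn2, fibrillin 2 of elastic fibres, stood at 15.6, 9.12, 11.4 and 12.2 CPM in WT and at 32.3, 71.1, 33.9 and 66.4 CPM in KO (2.07, SE 0.31, adjusted p = 0.0197), and it kept its call without WT litter 1, KO litter 1, KO litter 2 or KO litter 3. Fbln2, fibulin 2, stood at 174, 125, 105 and 145 CPM in WT and at 405, 586, 192 and 372 CPM in KO (1.51, SE 0.32, adjusted p = 0.0403). Lamb1, a laminin chain of basement membranes, stood at 11 to 14.2 CPM in WT and at 19.3 to 33.4 CPM in KO (1.06, SE 0.21, adjusted p = 0.0403). Over the 57 matrix genes 5 rose and 1 fell, where 2.46% of all genes were called higher and 2.26% lower. The median was 0.21, and none of 15 collagens was called.

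Other genes with a large rise and no overlap came from several pathways. Tslp, an epithelial-type alarmin cytokine, stood at 2.28, 2.33, 0.548 and 1.2 CPM in WT and at 14.5, 52.2, 3.34 and 31.5 CPM in KO (3.99, SE 0.70, adjusted p = 0.0403). Trf, transferrin, stood at 50.0 to 72.2 CPM in WT and 81.4 to 296 CPM in KO (1.62, SE 0.43, adjusted p = 0.0474). Sting1, the adaptor of cytosolic DNA sensing, stood at 7.71 to 14.7 CPM in WT and 18.3 to 47.9 CPM in KO (1.57, SE 0.39, adjusted p = 0.0430). Stc2, stanniocalcin 2, had 2.31 (SE 0.52), Cd93, a C-type lectin-like receptor, 2.87 (SE 0.73), and Shisa3, an antagonist of Wnt and FGF receptor maturation, 1.78 (SE 0.39). Rises with smaller litter-to-litter spread were named for their p-values. Trim9, a ubiquitin ligase, stood at 216 to 247 CPM in WT and 307 to 398 CPM in KO (0.63, SE 0.11), the clock activator Arntl at 21.7 to 26.3 against 30.6 to 45.5 CPM (0.70, SE 0.12), and the cell cycle inhibitor Cdkn2a at 23.2 to 24.8 against 31.8 to 49.1 CPM (0.80, SE 0.15), each at an adjusted p of 0.0403.

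The inflammatory lists are set beside 2.46% of all genes called higher and 2.26% called lower. Of 37 NF-κB targets measured none fell and 2 rose (median 0.32), Tslp and Cd14, the LPS co-receptor. KO lay wholly above WT for 4 of the 37 and wholly below for none, against 6.64% and 6.48% of all genes. DESeq2 called 8 of them higher and none lower, against 7.65% and 7.53% of all genes. Cd14 stood at 4.78, 4.60, 3.80 and 4.67 CPM in WT and at 6.95, 16.6, 4.79 and 13.8 CPM in KO (1.24, SE 0.30, adjusted p = 0.0417). The subunit gene Nfkb2 did not pass although KO (53.8 to 96 CPM) lay wholly above WT (50.7 to 53.2 CPM), at 0.54 (SE 0.15, adjusted p = 0.0524). The most abundant, Cxcl10, stood at 1030 to 1610 CPM in WT and 1190 to 2200 CPM in KO (0.30, SE 0.38, adjusted p = 0.646). Ccl2 (0.18, adjusted p = 0.751) and Cxcl1 (0.96, adjusted p = 0.173) did not pass either. Il1a, Il1b, Il6, Tnf and Ccl20 were below 1 CPM in every stimulated library and were not tested. By library, the median deviation of the 37 genes from the WT mean was 0.76 in KO litter 2 and 0.46 in KO litter 4, against 0.00 and -0.07 in KO litters 1 and 3, and without KO litters 2 and 4 the median fold change was 0.00.

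Of 51 interferon response genes 1 rose and 1 fell (median 0.01). By part, the median was 0.74 for 13 antiviral genes, of which 12 were above 0 and none was called, -0.15 for 10 GTPases and -0.10 for 13 antigen presentation genes. Without KO litters 2 and 4 the antiviral median was -0.26. Cxcl9, a T cell chemokine induced by IFNγ, stood at 99.3, 134, 85.5 and 148 CPM in WT and at 135, 348, 169 and 316 CPM in KO (1.04, SE 0.27, adjusted p = 0.0499), with KO litter 1 inside the WT range. Igtp, an IFNγ-induced GTPase, stood at 2970, 3750, 3740 and 3890 CPM in WT and at 2740, 2400, 3210 and 2400 CPM in KO (-0.41, SE 0.10, adjusted p = 0.0442). Gbp2, the most abundant member, stood at 6330 to 7470 CPM in WT and 5160 to 6770 CPM in KO (-0.17, SE 0.23, adjusted p = 0.665). Oasl1, an antiviral gene, did not pass, with KO litters 2 and 4 at 77.1 and 88.8 CPM and all other litters between 5.38 and 21.0 CPM (2.41, SE 0.68, adjusted p = 0.0520).

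The lists that describe reactive astrocytes showed no common direction. Their few calls are given beside 2.46% of all genes called higher and 2.26% called lower. Of 13 pan-reactive genes 1 rose, Steap4, a metalloreductase, at 22.3 to 46.2 CPM in WT and 46.8 to 139 CPM in KO (1.28, SE 0.30, adjusted p = 0.0403). Lcn2 (39.5 to 94.2 against 65.4 to 160 CPM, 0.90, SE 0.33, adjusted p = 0.0973) and Gfap (741 to 1620 against 368 to 1040 CPM, -0.94, SE 0.53, adjusted p = 0.253) did not pass. Of 12 genes named A1 for the neurotoxic state 1 fell, Amigo2, an adhesion molecule, at 30.2 to 43.5 CPM in WT and 23.2 to 26.5 CPM in KO (-0.56, SE 0.11, adjusted p = 0.0403). C3, complement factor 3 of the same list, stood at 92.3, 224, 222 and 434 CPM in WT and at 78.3, 109, 218 and 121 CPM in KO (-0.89, SE 0.35, adjusted p = 0.113). Of 11 genes named A2, Cd14 rose and Emp1 fell (-1.60, SE 0.43, adjusted p = 0.0480).

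Genes of the motile cilium axoneme, the microtubule machine that beats in ependymal cells, lay mostly below WT. Of 80 measured genes 11 fell and none rose, where 2.26% of all genes were called lower and 2.46% higher. KO lay wholly below WT for 26 (32.5% against 6.48% of all genes), and 76 had a log2 fold change below 0 (median -1.0). The median was negative in each part, at -0.95 for dynein arms, -0.40 for dynein assembly factors, -1.11 for the ruler and nexin-dynein link, -1.34 for radial spokes, -1.06 for the central pair and -1.09 for microtubule inner proteins. For 22 of the 80 genes less than 80% of the reads could be paired with the gene's symbol in some library, and among the other 58 the counts were 8 fallen and 21 wholly below WT. Levels were low. Cfap206, at the base of radial spokes, stood at 1.47, 2.61, 3.21 and 1.61 CPM in WT and at 0.210, 0.292, 0.878 and 0.0296 CPM in KO (-2.76, SE 0.62, adjusted p = 0.0403). Zmynd10, a dynein assembly factor, stood at 1.87, 1.84, 3.94 and 2.56 CPM in WT and at 0.509, 0.292, 0.907 and 0.177 CPM in KO (-2.21, SE 0.51, adjusted p = 0.0403). Rsph4a, of the radial spoke head, stood at 1.64 to 4.78 CPM in WT and 0.359 to 1.05 CPM in KO (-2.17, SE 0.51, adjusted p = 0.0403), and Dnah6, an inner arm heavy chain, at 3.60 to 10.2 against 0.730 to 2.69 CPM (-2.16, SE 0.56, adjusted p = 0.0463). The most abundant member, Cfap298, had a log2 fold change of 0.10 (adjusted p = 0.599).

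Of 17 regulators of this programme 1 rose and 1 fell, where 2.46% of all genes were called higher and 2.26% lower. The median was -0.34. KO lay wholly below WT for 5 of the 17, against 6.48% of all genes. Among the 9 with at least 80% of their reads paired, KO lay wholly below WT for 2. Foxj1, its master transcription factor, stood at 123, 141, 166 and 144 CPM in WT and at 87.0, 72.5, 120 and 107 CPM in KO, without overlap but not called (-0.57, SE 0.17, adjusted p = 0.0569). Rfx3, which acts beside it, was called, at 72.2, 70.2, 75.5 and 77.6 CPM in WT and at 62.2, 55.9, 59.2 and 58.6 CPM in KO (-0.35, SE 0.08, adjusted p = 0.0403). E2f4, which initiates centriole amplification, rose from 38.1 to 42.2 CPM in WT to 50.0 to 59.1 CPM in KO (0.40, SE 0.09, adjusted p = 0.0403). The most negative values belonged to Cdc20b (-2.91, adjusted p = 0.0628), Gmnc (-2.55, adjusted p = 0.0768), Deup1 (-2.11, adjusted p = 0.122) and Mcidas (-2.05, adjusted p = 0.217), which act early in multiciliation. These 4 were picked after their values were seen, did not pass, had means from 0.506 to 1.51 CPM and had fewer than 80% of their reads paired with the symbol. Of 37 genes of intraflagellar transport and the BBSome, shared by all cilia, 3 fell and none rose (median -0.21), including Ift80 (46.6 to 53.7 against 29.0 to 39.3 CPM, -0.56, SE 0.13, adjusted p = 0.0410) and Wdr19 (-0.49, SE 0.12, adjusted p = 0.0449). The axoneme list had nearly the same median in vehicle (-0.90), and without KO litters 2 and 4 the stimulated median was -0.74. The ependymal marker sum, which contains Foxj1, moved in the same direction, and its part in the axoneme values was not tested.

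GTTGCCA, the core letters read by RFX factors and searched on both strands, occurred in 18 of 66 axoneme promoters (27.3%), in 7 of 32 of the intraflagellar list (21.9%) and in 4.81% of promoters of all genes tested. Both lists were drawn up as cilium genes, so their shares describe the lists and not KO against WT. Among the 9 called axoneme genes with a promoter, the RFX core was found in Zmynd10 (chr9:107547054-107547353, plus strand) and Iqcg (chr16:33056137-33056436, minus strand), a nexin-dynein link gene picked after its values were seen that stood at 16.4 to 25.2 CPM in WT and 7.52 to 15.4 CPM in KO (-1.05, SE 0.25, adjusted p = 0.0407). Both windows are shown from GRCm38.p6, 5′ to 3′, with the RFX core in capitals, 38 bases after the start in the former and 19 before it in the latter.
Zmynd10: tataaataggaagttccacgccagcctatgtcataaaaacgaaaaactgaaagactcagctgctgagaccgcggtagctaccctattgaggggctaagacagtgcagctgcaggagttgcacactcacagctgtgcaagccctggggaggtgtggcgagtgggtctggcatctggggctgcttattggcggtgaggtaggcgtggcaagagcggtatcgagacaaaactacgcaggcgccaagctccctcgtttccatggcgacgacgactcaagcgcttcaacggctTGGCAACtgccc
Iqcg: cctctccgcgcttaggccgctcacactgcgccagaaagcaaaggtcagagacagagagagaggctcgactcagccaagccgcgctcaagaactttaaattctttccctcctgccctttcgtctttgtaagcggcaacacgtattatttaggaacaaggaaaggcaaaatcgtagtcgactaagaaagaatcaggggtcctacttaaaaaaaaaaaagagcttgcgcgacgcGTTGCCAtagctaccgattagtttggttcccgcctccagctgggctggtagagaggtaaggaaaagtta

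Of 27 genes of homeostatic astrocytes 5 fell and none rose, where 2.26% of all genes were called lower and 2.46% higher. All 27 had a log2 fold change below 0, and the median was -0.70 in stimulated and -0.32 in vehicle cultures. KO lay wholly below WT for 2 of the 27, against 6.48% of all genes. The median deviation from the WT mean was -0.48, -1.24, -0.17 and -1.09 in KO litters 1 to 4 and -0.37 in WT litter 1, and without KO litters 2 and 4 the median fold change was -0.35. S100b, a secreted calcium-binding protein, stood at 6.87, 12, 14.9 and 19.2 CPM in WT and at 3.92, 1.35, 6.57 and 1.24 CPM in KO (-2.0, SE 0.51, adjusted p = 0.0451). Gja1, connexin 43 of astrocyte gap junctions, stood at 189, 347, 427 and 547 CPM in WT and at 140, 118, 229 and 114 CPM in KO (-1.33, SE 0.36, adjusted p = 0.0477), with KO litter 3 inside the WT range. Hepacam, the partner of Mlc1 at end-feet, stood at 469 to 554 CPM in WT and 384 to 452 CPM in KO (-0.31, SE 0.08, adjusted p = 0.0418), and Mlc1 had -0.46 (SE 0.11, adjusted p = 0.0417). Aldoc, a glycolytic aldolase, fell by 0.62 on the log2 scale (adjusted p = 0.0463).

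Other members had differences as large but did not pass. Apoe, the main lipid carrier, stood at 2580, 4440, 4680 and 6200 CPM in WT and at 2290, 1550, 3370 and 1690 CPM in KO (-0.99, SE 0.30, adjusted p = 0.0586). Aqp4, the end-foot water channel, had -1.26 (SE 0.35, adjusted p = 0.0513), and the glutamate transporter Slc1a2 had -0.91 (SE 0.27, adjusted p = 0.0567). Slc1a3, the other glutamate transporter, stood at 2420 to 2990 CPM in WT and 2460 to 2780 CPM in KO (-0.05, SE 0.08, adjusted p = 0.696). Gja1, Aqp4, Slc1a2, Slc1a3 and Aldoc were picked after their values were seen. Of 16 identity factors Emx2 rose (0.88, SE 0.17, adjusted p = 0.0403), at 19.8 to 24.3 CPM in WT and 30.7 to 50.9 CPM in KO, and none fell. Over all genes 2.46% were called higher and 2.26% lower. Id4 (-1.38, SE 0.40, adjusted p = 0.0548) and the Notch target Hes5 (-1.40, SE 0.44, adjusted p = 0.0655) did not pass, while Hes6, which opposes Notch targets, fell (-0.47, SE 0.13, adjusted p = 0.0499). The oligodendrocyte precursor receptor Pdgfra fell from 38.6 to 64.1 CPM in WT to 22.8 to 40.4 CPM in KO (-0.84, SE 0.19, adjusted p = 0.0403).

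**Figure D4:**
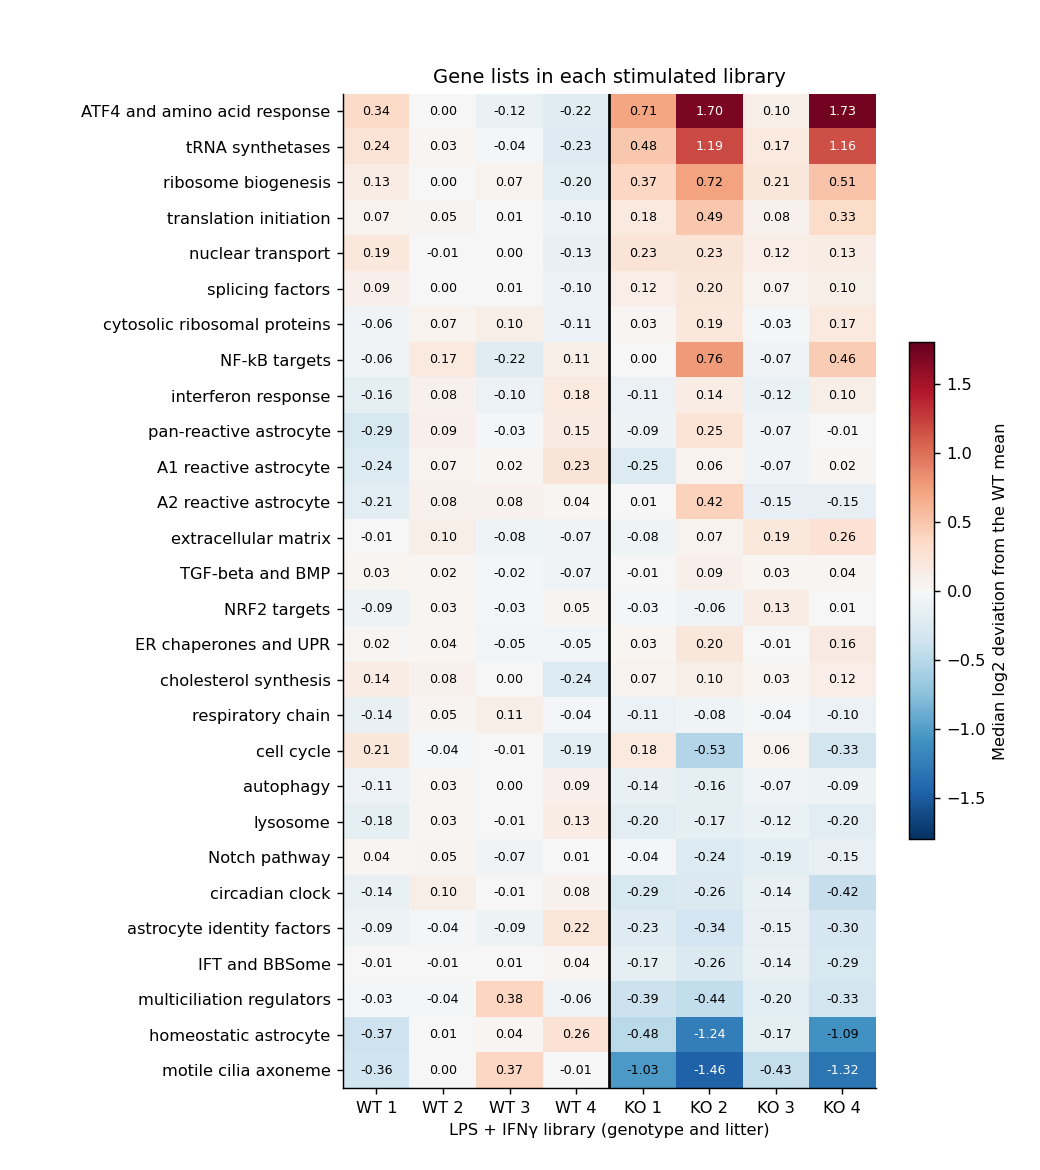
Each cell is the median, over the measured genes of a list (rows), of the log2 deviation from the mean of the 4 stimulated WT libraries, for each stimulated library (columns). KO litters 2 and 4 reach 1.7 and 1.73 for the ATF4 list and -1.46 and -1.32 for the axoneme list, whereas KO litter 3 reaches 0.10 and -0.43.

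Further genes above 100 CPM that fell without overlap were named for the size of the change. Draxin, a secreted guidance cue, stood at 120, 179, 199 and 264 CPM in WT and at 80.3, 32.8, 109 and 42 CPM in KO (-1.52, SE 0.35, adjusted p = 0.0403). Wnt7b, a Wnt ligand, stood at 324 to 387 CPM in WT and 125 to 277 CPM in KO (-0.89, SE 0.20, adjusted p = 0.0403). Plxnb1, a semaphorin receptor, stood at 305 to 435 CPM in WT and 130 to 278 CPM in KO (-0.88, SE 0.21, adjusted p = 0.0411), and Ttyh1, a membrane protein of neural progenitors, at 373 to 586 against 186 to 369 CPM (-0.85, SE 0.23, adjusted p = 0.0499). Falls named for their p-values were Ndn, the imprinted growth suppressor necdin, at 136 to 168 CPM in WT and 78.6 to 108 CPM in KO (-0.67, SE 0.11, adjusted p = 0.0362), Cers4, a ceramide synthase, at 64.7 to 85.7 against 45.2 to 54.4 CPM (-0.64, SE 0.11, adjusted p = 0.0403), and Pacsin3, an endocytic adaptor, at 33.7 to 45.3 against 14.5 to 26.6 CPM (-0.96, SE 0.18, adjusted p = 0.0403). In each of these 7 genes every KO litter was below every WT litter.

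Calls in stress and metabolic lists outside the ATF4 response are given beside 2.46% of all genes called higher and 2.26% called lower. Of 26 ER chaperone and unfolded protein response genes 1 rose, Herpud1 of ER-associated degradation (0.72, SE 0.19, adjusted p = 0.0463), and the median was 0.10. Of 22 NRF2 targets none fell and 2 rose, heme oxygenase Hmox1 (81.1 to 111 against 119 to 219 CPM, 0.84, SE 0.21, adjusted p = 0.0437) and Gclm (103 to 112 against 122 to 164 CPM, 0.43, SE 0.11, adjusted p = 0.0451). KO lay wholly above WT for 6 of the 22 and wholly below for none, against 6.64% and 6.48% of all genes. Gclc, the catalytic partner of Gclm in glutathione synthesis, did not pass (0.38, SE 0.11, adjusted p = 0.0516). Of 74 respiratory chain genes Ndufc2 rose (0.34, adjusted p = 0.0463) and Ndufv3 fell (-0.40, adjusted p = 0.0430), both of complex I, and the median was -0.05. None of 28 cholesterol synthesis genes was called, and their median was 0.07 in stimulated and 0.51 in vehicle cultures.

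Of 55 lysosomal genes 4 fell and none rose, all 4 among the 33 hydrolases. Arsa, arylsulfatase A, stood at 39.3 to 54.1 CPM in WT and 30.3 to 36.6 CPM in KO (-0.53, SE 0.12, adjusted p = 0.0403), Ppt1, palmitoyl-protein thioesterase, had -0.37 (SE 0.09, adjusted p = 0.0450), and Ctso, cathepsin O, -0.42 (SE 0.11, adjusted p = 0.0474). Over all genes 2.26% were called lower and 2.46% higher. Of 45 autophagy genes none fell and 2 rose, Atg16l1 (18.2 to 21.7 against 23.8 to 29.5 CPM, 0.40, SE 0.09, adjusted p = 0.0403) and Atg3 (0.24, SE 0.07, adjusted p = 0.0498). Most of the list leaned the other way, with 32 of the 45 below 0 and a median of -0.12. Map1lc3b, which encodes LC3, did not pass (-0.50, SE 0.14, adjusted p = 0.0531).

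Of 72 cell cycle genes 2 rose and 1 fell, a share below the 4.72% called over all genes. Cdkn1a, which encodes p21, stood at 107, 95.7, 66.9 and 87.9 CPM in WT and at 160, 278, 105 and 270 CPM in KO (1.19, SE 0.27, adjusted p = 0.0403), with KO litter 3 inside the WT range, Cdkn2a is given above, and Rb1 fell (-0.43, SE 0.11, adjusted p = 0.0434). None of 34 replication or 26 mitosis genes was called (medians -0.08 and -0.34). Of 44 TGF-β and BMP genes 3 rose and 2 fell. Gdf15, a stress-induced ligand, stood at 4.85, 3.89, 1.21 and 1.31 CPM in WT and at 8.32, 25.9, 3.48 and 33.6 CPM in KO (2.66, SE 0.64, adjusted p = 0.0410), Smad3 rose by 0.49 (SE 0.12, adjusted p = 0.0437) and the co-receptor Eng by 1.3 (SE 0.34, adjusted p = 0.0463), while Bmpr1a had -0.25 (SE 0.07, adjusted p = 0.0499). Of 20 clock genes Arntl rose and 2 fell, including the output factor Tef (-0.43, SE 0.12, adjusted p = 0.0495).

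A knockout allele can carry flanking chromosome from the strain it was made in, so the genes around Nlrx1 were counted. Within 10 Mb of it 151 genes were tested, and 3 rose and 6 fell (5.96% against 4.92% of all genes with a position). The litters of the groups did not overlap for 29 of them (19.2% against 13.5%). Within 2 Mb none of 54 rose and 3 fell (5.56%). Abcg4, a sterol transporter, stood at 17.2 to 20.7 CPM in WT and 9.99 to 15.6 CPM in KO (-0.54, SE 0.14, adjusted p = 0.0463), and Ttc12, a dynein assembly factor, at 11.9 to 15.7 against 4.79 to 9.52 CPM (-1.10, SE 0.28, adjusted p = 0.0451). Which strain these regions derived from was not tested.

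The same litters in vehicle gave 0 calls by edgeR's quasi-likelihood test, with 3136 genes at an unadjusted p below 0.05, 735 calls by DESeq2 and 1 by limma-voom. Of the 396 genes that rose under stimulation 359 had a log2 fold change above 0 in vehicle (median 0.28), and of the 363 that fell 332 were below 0 (median -0.29). The difference between the stimulated and the vehicle contrast, fitted with litter terms, gave 0 calls by edgeR (lowest adjusted p = 0.212), with 2484 genes at an unadjusted p below 0.05, 296 calls by DESeq2 and 0 by limma-voom. No gene is therefore said to differ between WT and KO under stimulation more than in vehicle. Trf and Camk2b had vehicle values near the stimulated ones (1.72 against 1.62, and 1.39 against 1.34), whereas Shisa3 had -0.18 against 1.78 and Tslp -0.18 against 3.99. The vehicle value of Tslp (SE 1.19) rests on levels of 0 to 0.222 CPM, near the floor, and says little.

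**Figure D5:**
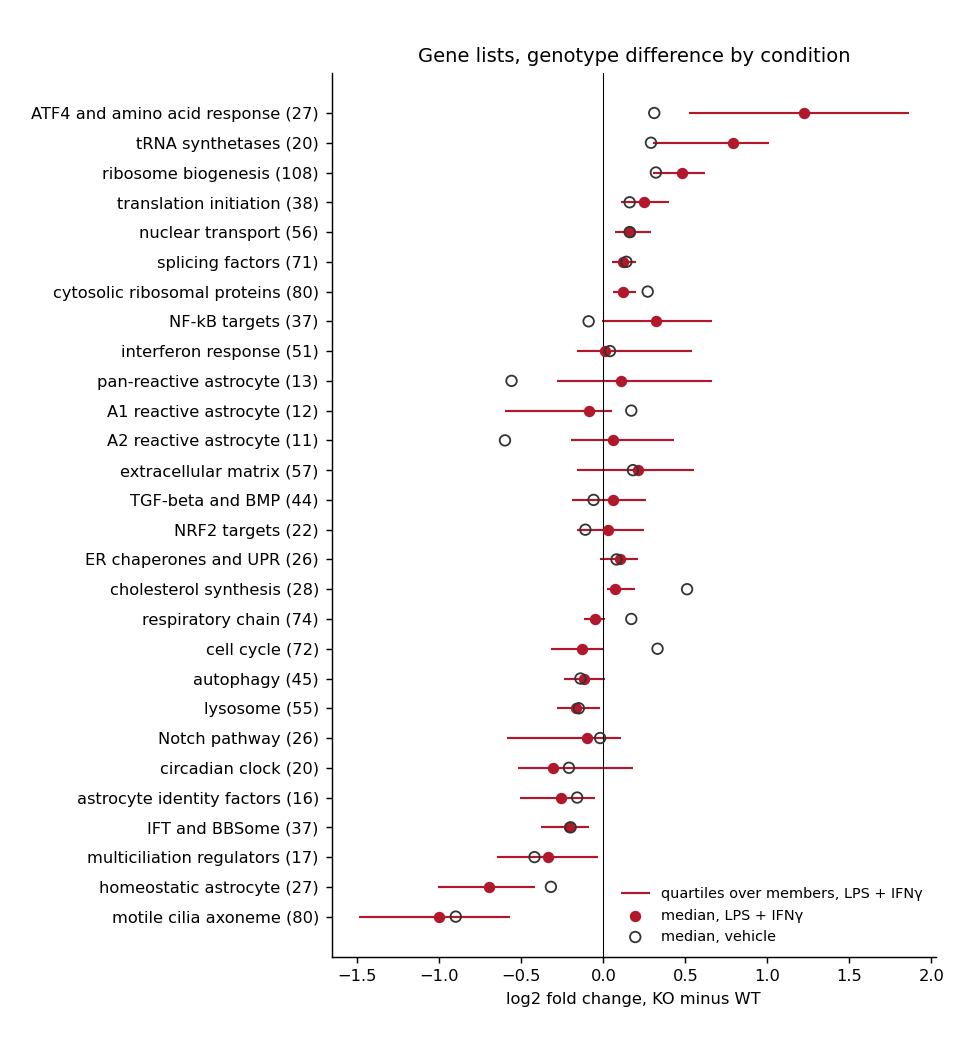
For each gene list (number of measured genes in brackets) the filled point is the median log2 fold change, KO minus WT, under LPS + IFNγ, the line spans the quartiles over genes, and the open circle is the median in vehicle. The ATF4 list stands at 1.22 stimulated and 0.31 in vehicle, and the axoneme list at -1.0 and -0.90.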

How the data were processed

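RNA-seq was analysed for 16 libraries of ACSA2-purified astrocytes, 4 litters in each of 4 groups. The authors quantified paired-end reads with Salmon 1.7.0 against GRCm39 transcripts and deposited estimated counts and TPM per transcript and effective lengths (TPM served here only to weight transcript lengths within a gene), together with gene tables of CPM (a signal scaled by TMM, on a linear scale) and of log2 CPM with a small prior count. The deposited log2 values served as a cross-check.

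Estimated counts were summed per gene through the transcript accession, with 106440 of 129698 transcripts paired with a symbol (96.7 to 97.3% of reads), rounded to whole numbers, and given length offsets in the fits, whereas printed CPM carry none. An SE is the absolute log2 fold change divided by the square root of F. Genes passed filterByExpr with a minimum count of 10 (16066 of 24219 with any count). One edgeR 4.0.16 quasi-likelihood model (R 4.3.3) with 4 groups, TMM scaling and no litter term gave the genotype contrasts, so vehicle libraries shared in the estimate of the spread. The vehicle and the stimulated library of a litter thus counted as separate, although their consensus correlation in limma-voom was 0.351. The difference between conditions was fitted with litter terms. P-values were adjusted by Benjamini-Hochberg with a threshold of 0.05. DESeq2 1.42.0, limma 3.58.1 and the settings in the closing section were alternatives. The model was tested on simulated data. No sample was dropped, and columns of other series numbered 0.

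Named genes were Nlrx1, called genes without litter overlap that had the largest changes, smallest p-values or largest changes above 100 CPM, and for each list the 3 smallest p-values and the most abundant member, each with at least 1 CPM and 80% of reads paired, plus called genes within 10 Mb of Nlrx1 and the genes the study measured by qPCR. Not every gene meeting this rule is printed. The comparison, the gene lists and the motif letters were chosen with earlier results of these data known. Counting was not strand-specific, so reads of overlapping antisense genes cannot be told apart.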

Additional observations from a re-analysis of the deposited data

Results flagged for a closer look

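Among 278 groups of 4 litters (139 genes in each genotype), 7 had a litter whose gap to its nearest neighbour exceeded Dixon's 95% critical value for 4 samples, as a share of the group's range, where chance gives about 1 in 20. In KO, Map3k19 was highest in litter 3 at 4.42 CPM, with the next litter at 1.5 CPM, and Eng was highest in litter 2 at 3.72 CPM, with the next at 1.92 CPM. Cdc20b was highest in KO litter 3 at 0.793 CPM, with the next at 0.11 CPM. In WT, litter 1 was lowest for Igtp at 2970 CPM (next 3740 CPM) and for Ttc12 at 11.9 CPM (next 15.5 CPM). WT litter 4 was highest for Rb1 at 117 CPM (next 98.3 CPM) and lowest for Ddx10 at 15.2 CPM (next 19.2 CPM).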

How the results depend on the processing

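The number of genes called was the result most dependent on the processing. Against 396 genes higher and 363 lower, DESeq2 size factors in edgeR gave 482 and 387, no length offsets 410 and 365, no filter on low counts 293 and 259, and a filter of 1 CPM 510 and 468. The 8 stimulated libraries alone gave 0 and 1, DESeq2 1229 and 1209, limma-voom 200 and 187, limma-voom with the litter correlation 586 and 659, limma on the deposited log2 CPM 735 and 736, and an adjusted p below 0.01 gave 1 and 2. Leaving out 1 litter gave 0 to 1451 genes higher and 1 to 1838 lower. Alternatives chosen after seeing the data were limma on log2(deposited CPM + 1), with 741 and 666, and leaving out KO litters 2 and 4, with 1 and 2. In vehicle, against 0, DESeq2 called 735 genes, limma-voom 1, and leaving out 1 litter 0 to 1285. For the difference between conditions, against 0, DESeq2 called 296, and leaving out 1 litter gave 0 to 359. The cause of these shifts was not tested.

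Same-numbered WT and KO litters had correlations of 0.00, 0.07, 0.13 and -0.09. The vehicle and stimulated libraries of a litter reached only 0.08 to 0.32. These ranges overlap, so the correlations cannot decide whether replicate numbers pair WT with KO, and the main fit took them as unpaired. With the replicate block in edgeR 994 genes were higher and 1164 lower.

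None of the 98 called genes examined changed direction under any alternative, which says little because they were called on mostly the same libraries. Of 2760 gene values 803 lost and 113 gained a call. Among 41 uncalled genes 6 had a reversed value. Leaving out 1 litter gave log2 fold changes of -0.07 to 0.30 for Slc7a11 (0.06 with all), -0.10 to 0.01 for Slc1a3 (-0.05), -0.12 to 0.36 for Ccl2 (0.18) and -0.14 to 0.02 for Olig1 (-0.05). Without KO litters 2 and 4 Slc7a11 was -0.29, Cxcl10 -0.11, Ccl2 -0.46, Cxcl1 -0.07 and Olig1 0.12. Of 560 list medians 11 moved, 8 of them without KO litters 2 and 4. Depth covers counting error only, and genes near 1 CPM, some axoneme genes among them, are the least precise.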
